A study of Mus musculus with 15 samples.

Results

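The Ly6 and Slurp genes described here are 9 members of the Ly6/uPAR family: Ly6a, Ly6c1, Ly6c2, Ly6d, Ly6e, Ly6g6c, Slurp1, Lypd8 and Psca. They were found as the probes, control spots apart, whose gene name in the scanner files is one of these symbols. The symbols were chosen with results of these same arrays known, with no recorded cutoff, so their values are given as a description. Where members are counted by the call of the fit over all genes, the count describes that choice and tests nothing. The array holds 11 probes for them among 56605 probes in all, with 2 probes each for Ly6c1 and Ly6g6c, and they are 9 of 37016 genes. Of the 9, 8 had signal well above background on at least 5 of 15 arrays and entered the fit of 22013 genes. Psca did not.

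The mice were female Balb/cJ animals, 8 weeks old at the start, with 1 mouse and 1 array per sample and 5 mice per group. In the DSS filgotinib group, mice drank 4% dextran sodium sulfate (DSS), which damages the lining of the colon, in 3 cycles of 4 days with washout periods of 3 days, and received filgotinib, which inhibits JAK1 in preference to the other Janus kinases, at 30 mg/kg by daily gavage. In the DSS vehicle group, mice drank DSS in the same cycles and received the vehicle of filgotinib. In the water group, mice drank water without DSS, and whether they were also dosed with vehicle is given differently by the design text and the sample labels. RNA came from mucosa scraped from the last 30 mm of the descending colon, and 100 ng of each RNA was labelled with Cy3 for a 1-colour array. The comparisons ask what DSS changed, what filgotinib changed under DSS, and how DSS with filgotinib differed from water.

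Proteins of this family share a small domain of loops held together by disulfide bonds. Most are tied to the outer cell membrane by a lipid anchor, and some, such as Slurp1, are secreted. In mouse colon, Ly6a (Sca-1) is known as a marker of epithelium that regrows after injury, the Ly6C antigen encoded by Ly6c1 and Ly6c2 as a marker of monocytes that enter inflamed tissue and of endothelium, and Lypd8 as a protein of the epithelial surface that keeps flagellated bacteria away from it. Interferon receptors signal through JAK1, and Ly6a and Ly6e are known to be induced by interferons. The Ly6 haplotype of BALB strains is known to display Sca-1 on fewer lymphoid cells than that of some other strains.

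The probes decide what can be told apart within such a family, and the sequences of those the results turn on follow, 5′ to 3′, with mm9 positions per the file headers. Capitals mark the bases at which the main Ly6c1 probe and the Ly6c2 probe differ. The Ly6a probe lies at chr15:74825553-74825612, the main Ly6c1 probe at chr15:74875495-74875554, the second Ly6c1 probe at chr15:74877785-74877844 and the Ly6c2 probe at chr15:74938637-74938695, all on the minus strand. The Slurp1 probe lies at chr15:74557085-74557144 on the minus strand, and the main Ly6g6c probe at chr17:35206934-35206993 on the plus strand.
Ly6a: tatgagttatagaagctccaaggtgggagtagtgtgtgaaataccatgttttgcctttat
Ly6c1, main probe: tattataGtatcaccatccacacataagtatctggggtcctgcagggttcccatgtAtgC
Ly6c2: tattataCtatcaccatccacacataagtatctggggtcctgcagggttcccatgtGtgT
Ly6c1, second probe: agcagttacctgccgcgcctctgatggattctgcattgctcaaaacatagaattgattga
Slurp1: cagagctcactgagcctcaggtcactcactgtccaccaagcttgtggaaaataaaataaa
Ly6g6c, main probe: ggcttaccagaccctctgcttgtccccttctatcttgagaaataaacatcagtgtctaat

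The main Ly6c1 probe and the Ly6c2 probe share 57 of 60 bases and differ at G8C, A57G and C60T, with the Ly6c1 base first and positions counted from 1 at the 5′ end. Transcripts of the 2 genes cannot be told apart by these probes. The second Ly6c1 probe matched no other probe of the array at more than 32 of 60 bases with a shift of up to 20 bases, nor did the probes of Ly6a, Ly6d, Ly6e and Slurp1, and the main Ly6g6c probe. Transcript sequences were not used here, so cross-hybridisation of any probe to other family transcripts was not tested.

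Arrays lay on 6 slides that do not follow the groups evenly. Slide 4 held DSS vehicle mouse 2 with water mice 3 and 5, and slide 2 held filgotinib mice 1 and 2 with DSS vehicle mice 1, 4 and 5, while no slide held both filgotinib and water mice. Values within slides 4 and 2 are therefore given below. Arrays of one group correlated at r between 0.974 and 0.995 across genes. The share of probes well above background was 52.4% to 60.2% in filgotinib mice, 55.0% to 60.4% in DSS vehicle mice and 59.8% to 63.8% in water mice. The 75th percentile used for scaling was 552 to 663 in filgotinib mice, 570 to 667 in DSS vehicle mice and 684 to 813 in water mice. This divisor was thus higher in every water mouse than in any DSS mouse. Filgotinib mouse 4 stood apart from the other 4 filgotinib mice in several of the genes below. It lay on slide 3 with filgotinib mouse 5 only. All 8 surface colonocyte markers, which include Slc26a3, Car4 and Aqp8, were measured. Their summed signal was 776 to 1071 times the array's 75th percentile in filgotinib mice. It was 869 to 1064 times in DSS vehicle mice and 738 to 1046 times in water mice. In this sum and in those of other lists below, the brightest genes of a list weigh most.

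Ly6a, Ly6c1 and Ly6c2 were higher in DSS vehicle mice than in water mice without overlap, and lower with filgotinib in 4 of 5 mice. Signals are given as multiples of the array's 75th percentile. Ly6a was at 15.3, 17.6, 11.8, 40.4 and 7.28 in filgotinib mice 1 to 5, at 64.9, 58.0, 34.8, 37.4 and 44.8 in DSS vehicle mice 1 to 5, and at 9.35, 5.89, 10.3, 7.61 and 4.88 in water mice 1 to 5. Filgotinib mice 1, 2 and 3 lay between all DSS vehicle mice and all water mice, mouse 4 lay within the DSS vehicle range, and mouse 5 lay within the water range. The mean was 18.5 ± 12.9 in filgotinib mice, 48 ± 13.1 in DSS vehicle mice and 7.60 ± 2.26 in water mice (SD, n = 5 each).

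On the log2 scale, Ly6a was higher by 2.67 ± 0.37 SE in DSS vehicle than in water mice, which is 6.37-fold. It differed by -1.58 ± 0.37 SE in filgotinib against DSS vehicle mice, or 2.98-fold lower, and by 1.1 ± 0.37 SE in filgotinib against water mice. Within slide 4 the first difference was 3.03, and within slide 2 the second was -1.54. Without filgotinib mouse 4 the second was -1.92. In bulk mucosa, more cells that carry a transcript and more of it per cell cannot be told apart, for Ly6a and for every gene below.

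The main Ly6c1 probe was at 93.5, 91.4, 84.3, 200.4 and 75.9 in filgotinib mice 1 to 5, at 202, 169.7, 119, 153 and 151 in DSS vehicle mice and at 81.4, 59.8, 73.1, 73.6 and 60.7 in water mice. Filgotinib mouse 4 was close to the highest DSS vehicle mouse, whereas the other 4 filgotinib mice lay below every DSS vehicle mouse and, but for mouse 5, above every water mouse. The main Ly6c1 probe differed on the log2 scale by 1.18 ± 0.22 SE in DSS vehicle against water mice, -0.62 ± 0.22 SE in filgotinib against DSS vehicle mice and 0.56 ± 0.22 SE in filgotinib against water mice.

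The Ly6c2 probe gave nearly the same pattern. It was at 96.1, 100.1, 93.3, 198 and 76.3 in filgotinib mice 1 to 5, at 199.6, 186, 139, 163 and 163 in DSS vehicle mice and at 84.8, 62.3, 83.3, 75.5 and 62.6 in water mice. Its log2 differences were 1.21 ± 0.21 SE in DSS vehicle against water mice, -0.67 ± 0.21 SE in filgotinib against DSS vehicle mice and 0.54 ± 0.21 SE in filgotinib against water mice. Filgotinib mouse 4 again lay among the DSS vehicle mice.

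The second Ly6c1 probe, which shares no such stretch with the Ly6c2 probe, showed larger differences in the same directions. Whether it also binds Ly6c2 transcripts was not tested, so it is not taken as a measure of Ly6c1 alone. It was at 0.877, 1.23, 1.12, 2.71 and 0.406 in filgotinib mice 1 to 5, at 3.87, 2.88, 2.21, 2.14 and 3.03 in DSS vehicle mice and at 0.636, 0.346, 0.443, 0.518 and 0.546 in water mice. Its log2 difference was 2.5 ± 0.37 SE in DSS vehicle against water mice, -1.38 ± 0.37 SE in filgotinib against DSS vehicle mice and 1.12 ± 0.37 SE in filgotinib against water mice. The size of the Ly6c1 difference therefore depends on the probe, and with the mean of both probes it was 1.84 in DSS vehicle against water mice and -1.0 in filgotinib against DSS vehicle mice. Within slide 4 the main Ly6c1 probe and Ly6c2 differed by 1.35 and 1.37 in DSS vehicle against water mice. Within slide 2 they differed by -0.85 and -0.83 in filgotinib against DSS vehicle mice. Without filgotinib mouse 4 these filgotinib differences over all slides were -0.86 and -0.89.

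**Figure D1:**
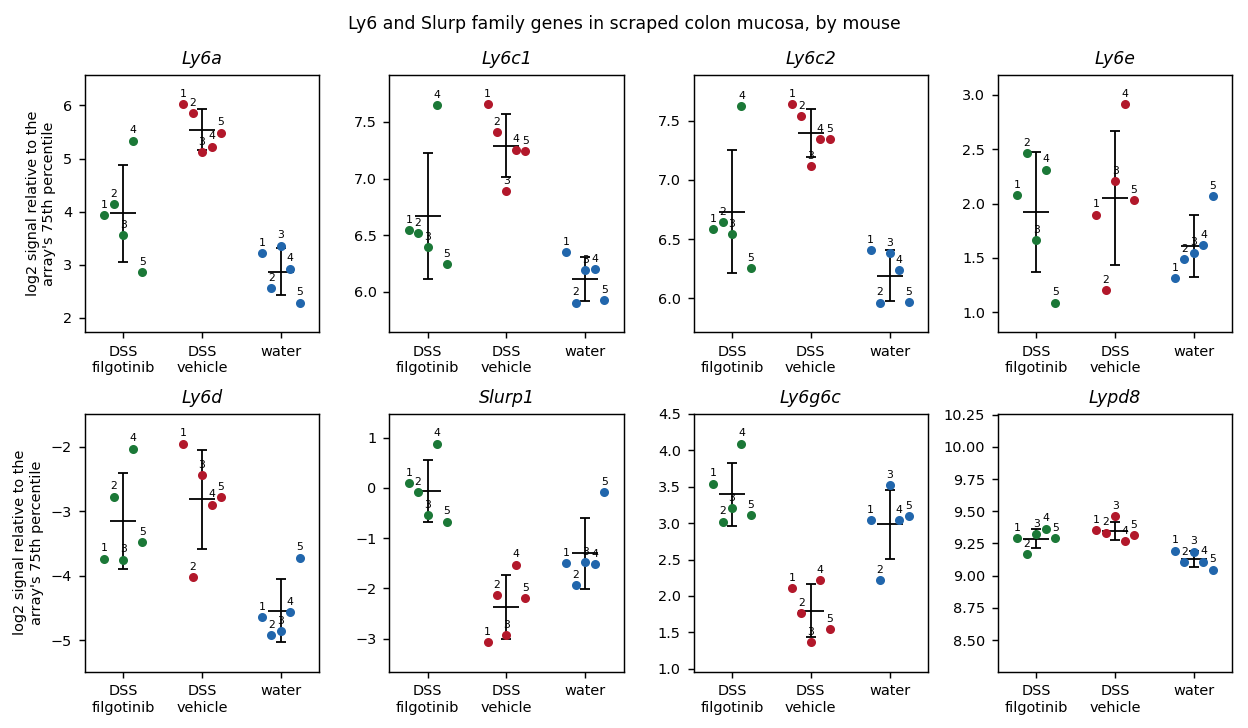
Log2 signal relative to the array's 75th percentile (vertical axis, its own range in each panel) in DSS filgotinib, DSS vehicle and water mice. Points are mice with their number in the group, bars are the mean and SD of 5 mice. Ly6a, Ly6c1 and Ly6c2 are high in DSS vehicle mice and in filgotinib mouse 4, and Slurp1 and Ly6g6c are low in DSS vehicle mice. Psca, which was near background, is not drawn.

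Ly6e, which codes for another lipid-anchored surface protein, differed little between groups. It was at 4.23, 5.52, 3.17, 4.96 and 2.13 in filgotinib mice 1 to 5, at 3.73, 2.30, 4.61, 7.53 and 4.08 in DSS vehicle mice and at 2.48, 2.80, 2.93, 3.06 and 4.20 in water mice. All 3 groups overlapped, with the lowest DSS vehicle mouse below every water mouse. The log2 difference was 0.44 ± 0.30 SE in DSS vehicle against water mice, -0.13 ± 0.30 SE in filgotinib against DSS vehicle mice and 0.31 ± 0.30 SE in filgotinib against water mice, and the first was -0.61 within slide 4. With the slide as a fixed block the third was -0.62.

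Ly6d, known from squamous keratinocytes and early lymphoid progenitors, had low signal, and its mean was higher in both DSS groups than in water mice, with a difference that depended on the slide and the background correction. It was at 0.0750, 0.146, 0.0742, 0.245 and 0.0896 in filgotinib mice 1 to 5, at 0.259, 0.0615, 0.184, 0.134 and 0.146 in DSS vehicle mice and at 0.0399, 0.0329, 0.0343, 0.0422 and 0.0759 in water mice, and 14 of 15 arrays were well above background. Water mouse 5 lay above DSS vehicle mouse 2 and filgotinib mice 1 and 3, and every other mouse of the DSS groups lay above every water mouse. Ly6d differed on the log2 scale by 1.73 ± 0.40 SE in DSS vehicle against water mice, -0.34 ± 0.40 SE in filgotinib against DSS vehicle mice and 1.39 ± 0.40 SE in filgotinib against water mice. The first was 0.27 within slide 4, whose DSS vehicle mouse was the lowest of its group, and 0.72 after normexp background correction and quantile normalization. The third was 0.57 under that correction, and with the slide as a fixed block it was -0.44, although no slide held both groups.

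Slurp1 and Ly6g6c ran the other way. Slurp1, a secreted protein of keratinocytes that acts on nicotinic acetylcholine receptors, was at 1.07, 0.946, 0.689, 1.84 and 0.628 in filgotinib mice 1 to 5, at 0.119, 0.227, 0.131, 0.347 and 0.218 in DSS vehicle mice and at 0.355, 0.261, 0.360, 0.349 and 0.940 in water mice. Every filgotinib mouse lay above every DSS vehicle mouse, and all filgotinib mice lay above water mice 1 to 4 but not all above water mouse 5. Among DSS vehicle mice, 4 of 5 lay below every water mouse.

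The log2 difference of Slurp1 was 2.31 ± 0.38 SE in filgotinib against DSS vehicle mice, or 4.96-fold higher, and 2.27 within slide 2. It was -1.07 ± 0.38 SE in DSS vehicle against water mice, -1.36 within slide 4, and 1.24 ± 0.38 SE in filgotinib against water mice. With 1 mouse left out, the difference between DSS vehicle and water mice was between -1.28 and -0.76, and that between filgotinib and water mice was between 1.01 and 1.55.

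Ly6g6c, a family gene that lies among the genes of the major histocompatibility complex, was measured by 2 probes with the same directions. Its main probe was at 11.6, 8.11, 9.24, 17.1 and 8.61 in filgotinib mice 1 to 5, at 4.30, 3.40, 2.58, 4.65 and 2.91 in DSS vehicle mice and at 8.26, 4.64, 11.5, 8.23 and 8.54 in water mice. Every filgotinib mouse lay above every DSS vehicle mouse, and water mouse 2 reached into the DSS vehicle range. The main probe of Ly6g6c differed on the log2 scale by -1.18 ± 0.25 SE in DSS vehicle against water mice, 1.59 ± 0.25 SE in filgotinib against DSS vehicle mice and 0.41 ± 0.25 SE in filgotinib against water mice. The first was -1.54 within slide 4 and the second 1.33 within slide 2, and with the slide as a fixed block the third was -0.22. The second probe gave -0.78 ± 0.16 SE, 0.94 ± 0.16 SE and 0.16 ± 0.16 SE for the same 3 comparisons.

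Lypd8 had high signal in all mice. It was at 628, 574, 640.1, 659 and 625 in filgotinib mice 1 to 5, at 655, 645, 706, 616 and 637 in DSS vehicle mice and at 586, 552, 583, 553 and 529 in water mice. Every DSS vehicle mouse lay above every water mouse, by a narrow margin at the nearest. The log2 difference was 0.22 ± 0.06 SE in DSS vehicle against water mice, -0.06 ± 0.06 SE in filgotinib against DSS vehicle mice and 0.16 ± 0.06 SE in filgotinib against water mice. The first was 0.01 with quantile normalization and in the deposited table, so that this small difference depends on how arrays are scaled, and no spot of this bright probe was marked as saturated.

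Psca, a lipid-anchored protein known from stomach and prostate, was well above background on 2 of 15 arrays, those of DSS vehicle mouse 1 and water mouse 4. It has only a bound in most mice and no difference is given.

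For the group of genes, 6 of the 8 measured members were called at an adjusted p under 0.05 in DSS vehicle against water mice, 5 higher and 1 lower, where 19.2% of all genes were called. With filgotinib, against DSS vehicle mice, 3 of 8 were called, 2 higher and 1 lower, where 11.3% of all genes were called. In filgotinib against water mice 1 of 8 was called, where 9.83% were. No mouse overlapped with the other group in 4 of 8 members for DSS vehicle against water, where this held for 16% of all genes. The same was true of 2 of 8 members for filgotinib against DSS vehicle (7.99% of all genes) and of 0 of 8 for filgotinib against water (9.57% of all genes). The members were chosen on these contrasts, so these counts describe the choice. The median log2 difference of the 8 members was 0.81, -0.23 and 0.55 in the 3 comparisons in this order, beside 0.05, 0.00 and 0.05 over all genes. With the slide as a fixed block, which leaves the first comparison to the 3 arrays of slide 4, 0 of the 8 passed in limma's fit in each comparison (4, 5 and 0 at an unadjusted p under 0.05), while 84, 437 and 2 of all genes passed.

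**Figure D2:**
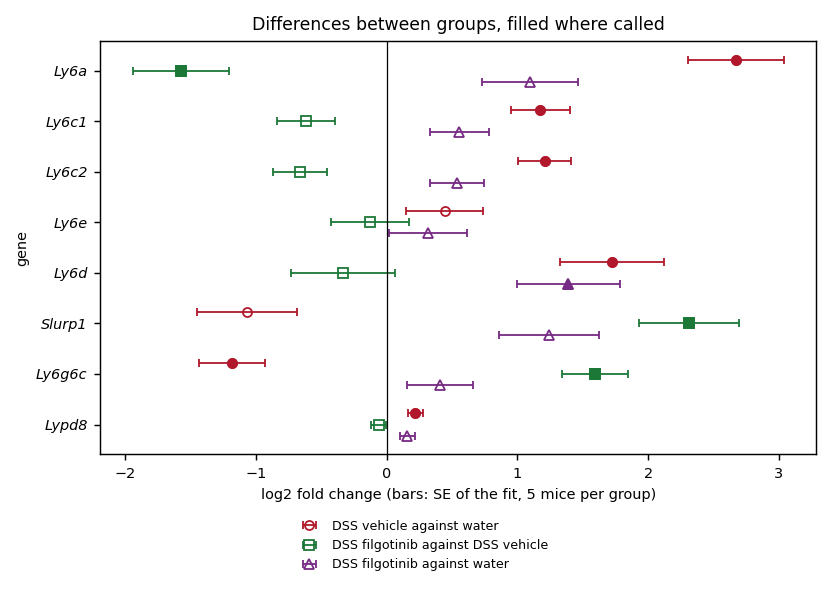
Log2 fold change (horizontal axis) of the 8 measured genes in DSS vehicle against water, DSS filgotinib against DSS vehicle and DSS filgotinib against water mice, with the SE of the fit as bars. Filled points had an adjusted p under 0.05 in the fit, given as a description. For Ly6a, Ly6c1 and Ly6c2 the first 2 comparisons point right and left, and for Slurp1 and Ly6g6c they point left and right.

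Mice of one group also differed from each other in a pattern that several of these genes shared. After the mean of its group was taken from each value, Ly6a and Ly6c2 correlated over the 15 mice (Pearson r = 0.96, Spearman rho = 0.91, and r = 0.91 without the 2 mice farthest from the median of Ly6a). Ly6a and the main Ly6c1 probe correlated likewise (r = 0.91, rho = 0.87, and r = 0.82 without those mice). The main Ly6g6c probe, whose group means ran the other way, had r = 0.61 with Ly6a, 0.71 with Ly6c1 and 0.71 with Ly6c2 (rho = 0.54, 0.69 and 0.69, and r = 0.41, 0.56 and 0.60 without the 2 farthest mice). Ly6e had r = 0.16 with both Ly6a and Ly6c2 (rho = -0.07 and -0.06). Ly6a and Slurp1 had r = 0.24 (rho = 0.12, and r = -0.32 without the same 2 mice). These values describe 15 arrays that share slides and scaling.

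Among the other genes of the 22013 measured, the 3 most like Ly6a in this measure were a transcript that the files name only ENSMUST00000089689 (r = 0.96), 9030619P08Rik (r = 0.94) and Ly6g (r = 0.93). The same 3 led for the main Ly6c1 probe (r from 0.94 to 0.96) and for Ly6c2 (r from 0.95 to 0.98). All 3 lie on chromosome 15 beyond Ly6c2 in mm9, with the Ly6g probe 50.4 kb, the ENSMUST00000089689 probe 127.5 kb and the 9030619P08Rik probe 322.5 kb past the Ly6c2 probe. Their probes matched the probes of the genes described here at no more than 29 of 60 bases. In DSS vehicle against water mice, 9030619P08Rik rose by 1.20 ± 0.24 SE on the log2 scale (adjusted p = 0.00459), ENSMUST00000089689 by 1.27 ± 0.25 SE (adjusted p = 0.00345) and Ly6g by 0.60 ± 0.19 SE (adjusted p = 0.0393). In filgotinib against DSS vehicle mice, 9030619P08Rik fell by 1.01 ± 0.24 SE (adjusted p = 0.0183, but 0.0518 without DSS vehicle mouse 1 and 0.0504 without filgotinib mouse 5), while the log2 differences of ENSMUST00000089689 and Ly6g were -0.76 (adjusted p = 0.0591, and 0.002 without filgotinib mouse 4) and -0.28 (adjusted p = 0.364). The log2 differences of 9030619P08Rik were 1.46 within slide 4 and -1.18 within slide 2.

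**Figure D3:**
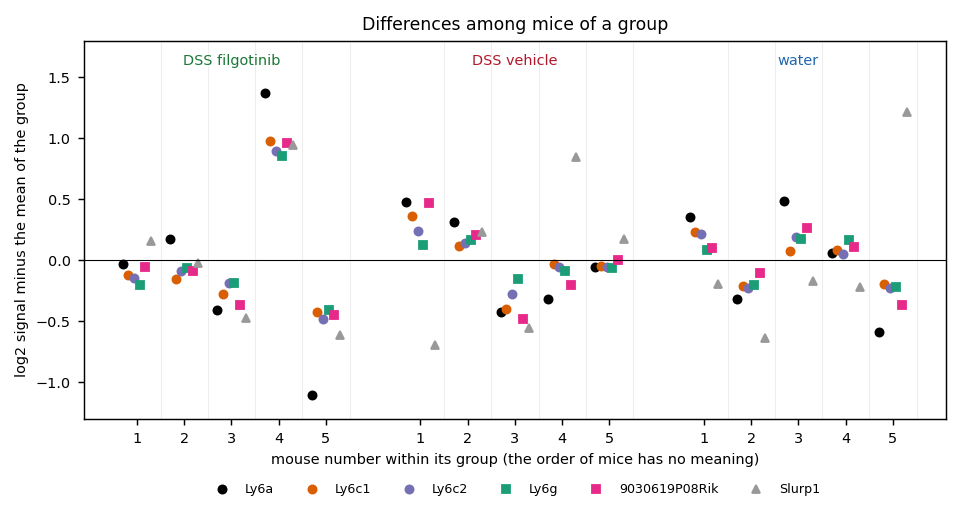
Log2 signal minus the mean of the mouse's own group (vertical axis) for Ly6a, Ly6c1, Ly6c2, Ly6g, 9030619P08Rik and Slurp1 in DSS filgotinib, DSS vehicle and water mice 1 to 5. Points of one mouse stand between the same grey lines. Filgotinib mouse 4 is high in all 6 genes, and Slurp1 lies away from the other 5 in DSS vehicle mice 1 and 4 and water mouse 5.

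The other members were most like different genes. These are the highest of 22013 genes over 15 mice, and a search of that size gives some high r by itself. Nothing is drawn from these likenesses. The genes with the highest r were Efnb1 (0.91), Cgn (0.91) and Ctnnd1 (0.89) for Ly6g6c, and Cst3 (0.86), Far2 (0.85) and Gabrp (0.82) for Slurp1. Cgn and Ctnnd1 code for cingulin and catenin delta, proteins of epithelial cell junctions. For Ly6e they were Ccl2 (0.88), a chemokine that draws monocytes, N4bp3 (0.88) and Sema4d (0.88). For Lypd8 they were COX2 (0.91), Milr1 (0.91) and Gm20751 (0.88). COX2 is here a RefSeq gene symbol and does not stand for Ptgs2. For Ly6d the genes were Cck (0.87) and 2 transcripts known in the files as DV047748 and BC054084 (both 0.82).

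By the probes' own positions, 7 of the 9 genes lie in one stretch of 391.8 kb on chromosome 15, from Psca over Slurp1, Ly6d, Ly6e, Ly6a and Ly6c1 to Ly6c2. Of 18 measured genes in this stretch, 6 are among the genes described here and 7 are other family genes. The main Ly6c1 probe and Ly6c2, which share sequence, had like differences. Slurp1 (log2 difference -1.07) and Ly6d (1.73), which differ in sign in DSS vehicle against water mice, have probes 10.2 and 45.7 kb from that of Psca, with the measured genes Lypd2, Slurp2 and Lynx1 between them. Ly6e (0.44) and Ly6i (0.01) stand between Ly6m (1.76) and Ly6a (2.67). Ly6g6c lies on chromosome 17 and Lypd8 on chromosome 11.

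**Figure D4:**
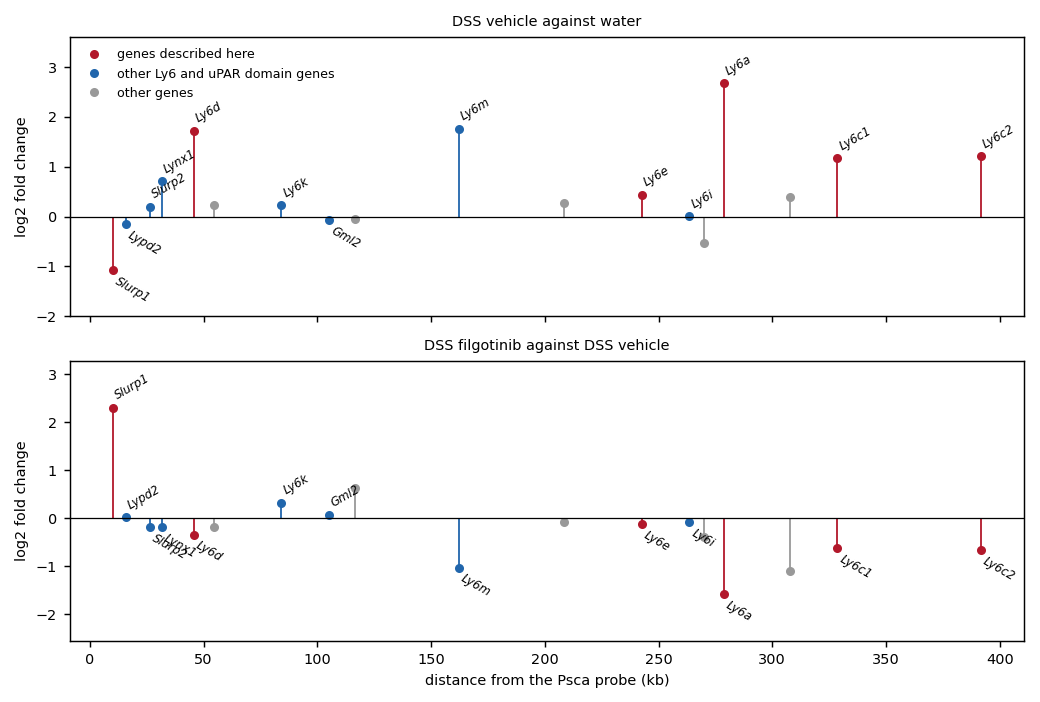
Log2 fold change (vertical axes) of 18 measured genes against the distance of their probe from the Psca probe in kb (horizontal axis), for DSS vehicle against water and DSS filgotinib against DSS vehicle mice. Red marks genes described here, blue other Ly6 and uPAR domain genes and grey other genes. Ly6a and Ly6m are the highest in the upper panel, and Slurp1 points down there and up in the lower panel.

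RefSeq promoter windows of 300 bases (GRCm38.p6, 250 before and 50 after a start) were given for 4 of the 9 genes, Ly6c1, Ly6c2, Ly6g6c and Lypd8, with 7 windows in all. The STAT motif TTCNNNGAA was in 0 of the 7 windows, and in 8.3% of all 32851 windows of the table. The interferon response core, TTTC and TTTC with any 2 bases between them on either strand, was also in 0 of the 7 and in 3.44% of all windows. The windows of Ly6c1 overlap each other, as do those of Ly6c2, and Ly6a and Ly6e had no window. At such shares 0 is a likely count for so few windows, so nothing is drawn from it.

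The other family genes were tested in the same fit. Of 40 listed, 37 had a probe and 24 were measured. In DSS vehicle against water mice 8 of 24 rose and 0 fell, beside 19.2% of all genes called. The median log2 difference of the 24 was 0.23, beside 0.05 over all genes. Between filgotinib and DSS vehicle mice 1 of 24 rose and 3 fell, beside 11.3% of all genes called and with a median of -0.12. In filgotinib against water mice 2 of 24 rose and 0 fell, beside 9.83%, with a median of 0.15.

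Ly6m, Ly6f, Ly6g and Lynx1 were among the genes that rose with DSS. Ly6m was at 2.51 ± 0.699 in DSS vehicle mice and 0.826 ± 0.533 in water mice (SD, n = 5 each), 3.39-fold higher (adjusted p = 0.00443). Ly6f was at 0.196 ± 0.0508 and 0.0605 ± 0.0232 in the same groups, 3.32-fold higher (adjusted p = 0.00258). This log2 difference of 1.73 in a gene of low signal was as little as 0.86 under other processing settings. Ly6g, the antigen by which neutrophils are commonly gated in mice, was at 24.0 ± 2.36 and 15.9 ± 2.12 and rose 1.52-fold (adjusted p = 0.0393). Lynx1, a lipid-anchored modulator of nicotinic receptors, rose 1.63-fold (adjusted p = 0.00328). Within slide 4 the log2 differences of Ly6m, Ly6f, Ly6g and Lynx1 were 2.08, 1.71, 0.80 and 0.26.

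The Ly6g call was lost without any one of the 5 DSS vehicle mice or without water mouse 1, 2, 4 or 5, where its adjusted p was between 0.0501 and 0.09. With filgotinib, neither Ly6m nor Ly6f passed (log2 difference -1.02 and -0.89, adjusted p = 0.0754 and 0.0815), and within slide 2 they differed by -0.78 and -0.91. Without filgotinib mouse 4 both Ly6f and Ly6g passed that comparison (adjusted p = 0.011 and 0.0141), and Ly6m did without water mouse 1 (adjusted p = 0.0326).

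Plaur, Lypd6b and Ly6h rose with DSS and fell with filgotinib. Plaur, the receptor for urokinase, was at 0.539 ± 0.186 in filgotinib mice, 0.928 ± 0.229 in DSS vehicle mice and 0.500 ± 0.107 in water mice (SD, n = 5 each). It rose 1.85-fold in DSS vehicle against water mice (adjusted p = 0.0156) and was 1.76-fold lower in filgotinib than in DSS vehicle mice (adjusted p = 0.0343). Lypd6b rose 1.78-fold with DSS (adjusted p = 0.000441) and was 1.38-fold lower with filgotinib (adjusted p = 0.0207). Ly6h, known from brain, rose 1.53-fold (adjusted p = 0.0178) and was 1.52-fold lower (adjusted p = 0.0298). Its signal was low, with means of 0.0700 in filgotinib, 0.107 in DSS vehicle and 0.0684 in water mice. The size of its log2 differences, 0.61 and -0.60, depended on the processing, and under other settings they shrank to as little as 0.25 and -0.22.

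The filgotinib calls of these 3 genes were near the threshold, and leaving out any 1 of several mice ended them. The log2 differences kept their sign with 1 mouse left out. They were between -0.98 and -0.69 for Plaur, -0.74 and -0.50 for Ly6h, and -0.55 and -0.39 for Lypd6b. Leaving out DSS vehicle mouse 1, 3, 4 or 5, or filgotinib mouse 1, 4 or 5, ended the Plaur call (highest adjusted p = 0.0883). Ly6h lost its call when DSS vehicle mouse 1, 4 or 5 or filgotinib mouse 1, 2 or 5 was left out (highest adjusted p = 0.071). Lypd6b lost it when filgotinib mouse 2 or DSS vehicle mouse 1 was (highest adjusted p = 0.0548). Within slide 2 the log2 differences of Plaur, Lypd6b and Ly6h were -0.65, -0.61 and -0.96. Within slide 4 their differences between DSS vehicle and water mice were 0.37, 0.94 and 0.10.

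Ly6g6d, the neighbour of Ly6g6c by name and known as a surface antigen of colorectal cancer in humans, was the only one of the 24 that rose with filgotinib under DSS. It was at 5.87, 5.06, 3.95, 3.44 and 5.42 in filgotinib mice 1 to 5, at 2.76, 2.58, 2.31, 2.83 and 3.27 in DSS vehicle mice and at 3.84, 3.63, 3.66, 3.33 and 3.48 in water mice. Every filgotinib mouse and every water mouse lay above every DSS vehicle mouse. Ly6g6d was 1.70-fold higher in filgotinib than in DSS vehicle mice (adjusted p = 0.00428), and its log2 difference in DSS vehicle against water mice was -0.39 ± 0.13 SE (adjusted p = 0.0554). The same differences were 0.89 within slide 2 and -0.47 within slide 4.

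Of the remaining genes, Spaca4, which codes for a sperm membrane protein, rose 1.22-fold with DSS (adjusted p = 0.0186), a call lost without water mouse 4 (adjusted p = 0.0528), and its log2 difference was 0.31 within slide 4. In filgotinib against water mice, Lynx1 rose 1.43-fold (adjusted p = 0.0306) and Ly6g6e 1.27-fold (adjusted p = 0.0491). Lynx1 lost this call when water mouse 2, 3 or 4 or filgotinib mouse 1 or 2 was left out (highest adjusted p = 0.074). Ly6g6e lost it when any of water mice 2 to 5, DSS vehicle mice 3 to 5 or filgotinib mice 1, 4 and 5 was (highest adjusted p = 0.115). Lypd5, Cd177, Slurp2 and Ly6g5b, the brightest of those that passed nowhere, had log2 differences between -0.19 and 0.26 in the 3 comparisons.

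**Figure D5:**
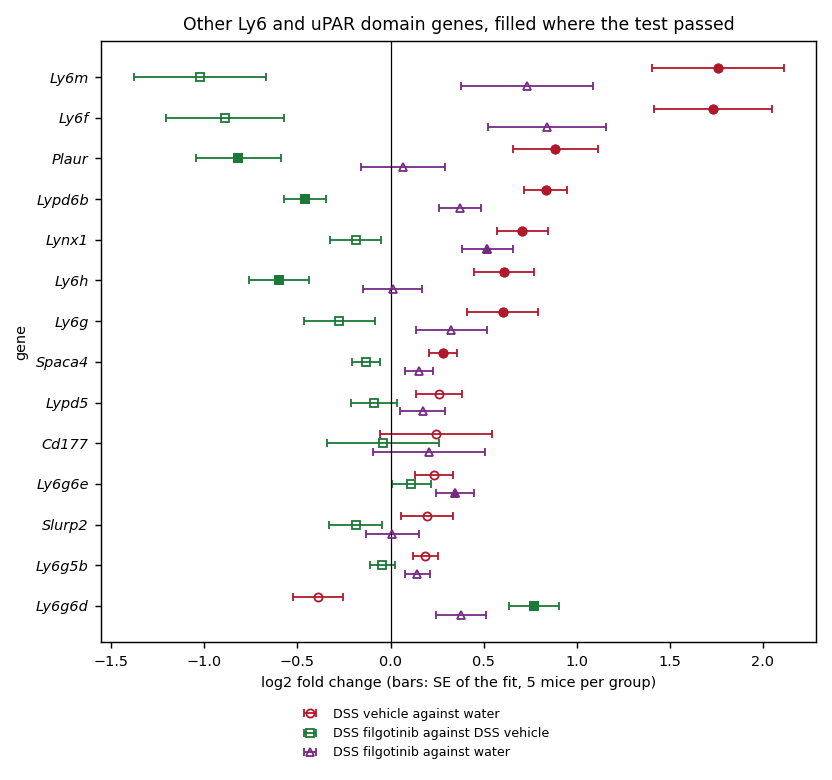
Log2 fold change (horizontal axis) of 14 other Ly6 and uPAR domain genes in DSS vehicle against water, DSS filgotinib against DSS vehicle and DSS filgotinib against water mice, with the SE of the fit as bars. Filled points passed at an adjusted p under 0.05. Ly6m and Ly6f are farthest right in the first comparison, and Ly6g6d is the filled point on the right in the second.

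Lists of genes of the cells that can carry these transcripts were set beside them. The counts of every list below stand beside 19.2% of all genes called in DSS vehicle against water mice. In filgotinib against DSS vehicle mice this share was 11.3%, and in filgotinib against water mice 9.83%. Of 24 measured interferon-induced genes 14 rose and 0 fell in DSS vehicle against water mice (median log2 difference 0.78), and 0 rose and 9 fell in filgotinib against DSS vehicle mice (median -0.96). In filgotinib against water mice 1 rose and 0 fell (median 0.04). Among them, in filgotinib against DSS vehicle mice, Ifit2 was 6.56-fold lower (adjusted p = 0.0121) and Ifit3 3.37-fold lower (adjusted p = 0.00468), with log2 differences of -2.48 and -1.73 within slide 2. The DSS rise was smaller within slide 4. Ifit2, Ifi44, Ifi47 and Gbp3 differed there by 0.49, 0.27, 0.62 and 0.90, against 2.08, 1.89, 1.82 and 1.63 over all mice. The Ifit2 and Ifi44 calls for DSS were lost without DSS vehicle mouse 4 (adjusted p = 0.0631 and 0.0987), among other mice. The summed signal of the 24 interferon-induced genes was 209 to 320.1 times the 75th percentile in filgotinib mice, 263 to 407 in DSS vehicle mice and 194 to 278 in water mice. Their part in the Ly6a difference was not tested.

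For monocytes and macrophages, 1 of 12 measured markers rose in DSS vehicle against water mice, beside 19.2% of all genes called, and the median log2 difference of the list was 0.71. This was Plac8 (1.61-fold, adjusted p = 0.00342, and a log2 difference of 0.96 within slide 4). In the same comparison 5 of the 12 had an unadjusted p under 0.05 in limma's fit. In filgotinib against DSS vehicle mice 0 passed in limma's fit (median -0.36), with 1 at an unadjusted p under 0.05, and Ccr2 and Fcgr1 were under the signal filter. The summed signal was 237 to 360.3 in filgotinib mice, 279 to 346 in DSS vehicle mice and 185 to 240.2 in water mice. Of 10 measured endothelial markers, 0 passed in limma's fit in each of the 3 comparisons, and 0 had an unadjusted p under 0.05 (medians 0.45, -0.38 and 0.10). Pecam1 and Cdh5, the first 2 listed, differed by -0.05 and 0.44 in DSS vehicle against water mice (adjusted p = 0.815 and 0.726). The list had summed signals of 2.37 to 9.51 in filgotinib mice, 2.41 to 10.6 in DSS vehicle mice and 2.65 to 4.32 in water mice. The part of either cell type, or of any other such as epithelium, in the Ly6c differences was not tested.

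Of 12 measured genes of regenerating epithelium, 4 rose and 1 fell in DSS vehicle against water mice and 2 fell in filgotinib against DSS vehicle mice, with medians of -0.03 and -0.22. Emp1, a membrane protein gene of this list, rose 4.47-fold (adjusted p = 0.00139), and Basp1, which codes for a protein of the inner cell membrane, was 2.5-fold lower with filgotinib (adjusted p = 0.0203, but 0.0515 without DSS vehicle mouse 5 and 0.0552 without filgotinib mouse 5). The log2 differences were 1.57 for Emp1 within slide 4 and -1.57 for Basp1 within slide 2. Basp1 also rose with DSS (log2 difference 1.28, adjusted p = 0.0147, and 0.81 within slide 4). Emp1 also fell with filgotinib (-1.20, adjusted p = 0.0439, but 0.109 without filgotinib mouse 5). The gene of this list that fell with DSS was Cldn4 (-0.77, adjusted p = 0.0212, but 0.0587 without water mouse 4). In filgotinib against water mice 1 of the 12 rose and 1 fell (median 0.10). The summed signal was 109.6 to 168 in filgotinib mice, 131 to 151 in DSS vehicle mice and 81.7 to 113 in water mice. Of 8 neutrophil markers 2 rose with DSS, beside 19.2% of all genes called. These were S100a9, by 14.4-fold (adjusted p = 0.00608), and Ltf, by 3.16-fold (adjusted p = 0.0123). S100a9 was 8.69-fold lower with filgotinib (adjusted p = 0.028, but between 0.0502 and 0.0618 without filgotinib mouse 1 or DSS vehicle mouse 1 or 5). The size of the S100a9 rise varied, with a log2 difference of 3.85 over all mice, 3.17 without DSS vehicle mouse 3, 2.18 after normexp and quantile normalization and 1.45 within slide 4. Its fall with filgotinib was -3.12 over all mice on this scale, -2.44 without DSS vehicle mouse 3, -1.83 after that correction and -2.68 within slide 2. Ltf differed by 1.17 within slide 4 and by 0.75 after normexp and quantile normalization. Summed neutrophil signal was 149 to 168 in filgotinib mice, 171 to 187 in DSS vehicle mice and 147 to 169 in water mice. The brightest genes weigh most in this sum, so it need not follow S100a9 and Ltf. Cxcr2, Ngp and Retnlg were under the signal filter.

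Squamous epithelium lies next to the distal colon and is where Ly6d and Slurp1 are best known. Of its 21 listed markers 15 were measured, and Krt4, Dsg1a, Sprr1b, Sprr3, Ivl and Calml3 were under the signal filter. In DSS vehicle against water mice 2 of the 15 rose and 1 fell, beside 19.2% of all genes called. Krt14 rose 3.72-fold (adjusted p = 0.00148), Dsg3 rose 2.18-fold (adjusted p = 0.0184) and Lor was 2.13-fold lower (adjusted p = 0.0047). Within slide 4 their log2 differences were 1.89, 1.15 and -0.51, and that of Dsg3 was 0.35 after normexp and quantile normalization. In filgotinib against DSS vehicle mice Lor was 1.66-fold higher (adjusted p = 0.0493), a call that most mice left out in turn ended (highest adjusted p = 0.117, without DSS vehicle mouse 1). Krt1 was 1.70-fold lower there (adjusted p = 0.0388), a call ended likewise by 9 of the mice left out in turn (highest adjusted p = 0.0883, without filgotinib mouse 5). Within slide 2 Lor and Krt1 differed by 0.88 and -0.82 on the log2 scale. The summed signal of the list was 15.2 to 20.6 in filgotinib mice, 16.6 to 21.2 in DSS vehicle mice and 14.8 to 17.4 in water mice, and its part in the Ly6d and Slurp1 differences was not tested. Of T cell markers 1 of 8, Il7r, rose in DSS vehicle against water mice (2.65-fold, adjusted p = 0.0285), a call that ended when DSS vehicle mouse 3 or 5 or any of water mice 1 to 4 was left out (highest adjusted p = 0.072). Its log2 difference was 0.64 within slide 4. Between filgotinib and DSS vehicle mice 0 of the 8 passed in limma's fit, with 2 at an unadjusted p under 0.05. In DSS vehicle against water mice 5 of the 8 T cell markers had an unadjusted p under 0.05 in that fit. The median log2 difference of the T cell list was 0.48 in DSS vehicle against water and -0.37 in filgotinib against DSS vehicle mice.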

How the data were processed

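Mucosal RNA of 15 mice was measured on 1-colour Agilent arrays, whose number limits the precision. Per the file headers, the deposited scanner files hold each spot's intensity, background-subtracted and detrended within the array. The submitters' processing notes name Agilent Feature Extraction 11.5.1.1 and limma. A deposited table gives 32349 probes as log2 values, and the sources used here do not state its normalization or probe filter. Members and gene lists were chosen with earlier results of these data known. The processed signal was set to log2 and the 75th percentile of its array subtracted. Control spots and 101 probes with outlier marks were left out, leaving 56504, and no spot was saturated. Probes counted as measured if at least 5 arrays marked them well above background, and each gene took its brightest such probe, named through RefSeq GRCm38.p6 (used for names). On the array of DSS vehicle mouse 3 the header names no genome build. Groups were compared with limma 3.58.1 in R 4.3.3 (lmFit, eBayes), in 1 fit over all 15 arrays, two-sided, Benjamini-Hochberg adjusted over 22013 genes, and called at 0.05. Named beside the members were all other family genes that passed and the 4 brightest that did not, at most 4 passing genes of a marker list, and the 3 genes most like each member. The code was tested on simulated data. Alternatives were other background corrections and scalings, the deposited table, filters, probe rules, slide and replicate blocks, the 2 groups alone and each mouse left out.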

Additional observations from a re-analysis of the deposited data

Results flagged for a closer look

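Single mice stood far from the rest of their group in 4 probes, judged by the gap to the nearest mouse as a share of the group's range. Chance flags about 1 in 20 groups, and 5 mice per group and 11 probes give many groups. Filgotinib mouse 4 was the highest of its group for the main Ly6c1 probe (gap 0.785 of the range, at 200.4 times the 75th percentile) and for Ly6c2 (0.715, at 198), whose probes are nearly the same. Water mouse 2 was the lowest of its group for the second Ly6g6c probe (0.781, at 0.646). Water mouse 5 was the highest of its group for Slurp1 (0.748, at 0.940).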

How the results depend on the processing

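Counts of genes at an adjusted p under 0.05 depended on the setting in all 3 comparisons. In DSS vehicle against water mice, 4220 genes were called, 2522 with scaling to the median and 84 with the slide as a fixed block, and 2829 to 4645 with 1 mouse left out. Of the 8 members 6 were called, 0 with the slide as a fixed block and 6 to 7 with 1 mouse left out, and of the other family genes 8, 1 with the slide as a fixed block and 6 to 9 with 1 mouse left out. In filgotinib against DSS vehicle mice, 2492 genes were called, 1229 with no filter on dim probes, 437 with the slide as a fixed block, 1276 with only the 2 groups fitted, and 1315 to 3060 with 1 mouse left out. Of the members 3 were called, 5 with normexp and quantile normalization, 5 with quantile normalization and 5 in the deposited table (Ly6c1 and Ly6c2 being added), 0 with the slide as a fixed block, and 3 to 5 with 1 mouse left out. Of the other family genes 4 were called, 1 with no filter, 1 with only the 2 groups, and 1 to 6 with 1 mouse left out. In filgotinib against water mice, 2164 genes were called, 1369 with normexp, 521 with scaling to the median, 1195 with quantile normalization, 1240 in the deposited table, 9053 with no filter, 1416 with the mean of probes, 2 and 1398 with the slide as a fixed and a random block, 1078 with only the 2 groups, and 744 to 2887 with 1 mouse left out. There 1 member was called, 3 with no filter, 0 with scaling to the median, quantile normalization, the deposited table, the mean of probes, either slide block or only the 2 groups, and 0 to 2 with 1 mouse left out. Of the other family genes 2 were called there, 1 with normexp, scaling to the median, quantile normalization, the deposited table, the mean of probes or the slide as a random block, 0 with the slide as a fixed block or only the 2 groups, and 0 to 3 with 1 mouse left out. The cause of these shifts was not tested. The number of a mouse was also fitted as a replicate block, although nothing in the labels pairs mice of the same number and 5 of 15 pairs of same-numbered mice correlated at over 0.1 (-0.52 to 0.53). With the replicate block, 3412, 1608 and 788 genes were called in the 3 comparisons, with 6, 3 and 0 members and 9, 2 and 0 other family genes.

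Some differences changed sign, most of them small in the fit as reported, but that of Ly6d (1.39) was not. In filgotinib against DSS vehicle mice, Ly6g6e was at -0.012 in the deposited table, -0.089 with the slide as a fixed block and -0.034 by its other probe. Cd177 was at 0.036 with scaling to the median, 0.092 with the slide as a fixed block and between -0.22 and 0.10 with 1 mouse left out, and Ly6g5b at 0.034 with scaling to the median. In filgotinib against water mice, the slide as a fixed block gave -0.44 for Ly6d, -0.62 for Ly6e, -0.22 for Ly6g6c, -0.018 for Ly6g6e, -0.86 for Ly6h, -0.28 for Plaur and -0.12 for Slurp2. There Ly6h was also at -0.021 with the slide as a random block. With 1 mouse left out, Ly6h was between -0.10 and 0.11, Plaur between -0.10 and 0.20, Slurp2 between -0.13 and 0.065 and 9030619P08Rik between -0.056 and 0.30. Slurp2 was at -0.0058 with normexp. Protein sequences were not used here, and a setting under which a gene had no measured probe gives no value for it. The number of arrays, and signal near background for Ly6d, Ly6f, Ly6h and Psca, limit the precision.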
